A study of Mus musculus with 31 samples.

Results

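Meiotic recombination hotspots close to the centromeres of the mouse autosomes were described here, in testis of 25 genotypes that carry PRDM9 and 1 that lacks it. A hotspot belonged to the set when it lay on chromosomes 1 to 19 and its centre was at or before base 13000000 of the mm10 assembly. Mouse chromosomes carry the centromere at the low end of the numbering, and placed sequence begins near 3000000, so each chromosome contributed a window of 10 Mb. The rule found 30339 of the 414683 hotspots in 26 lists, and 361886 autosomal hotspots lay past the windows. The 19 windows cover 190 Mb, which is 7.91% of the autosomal length, and the rest is 2213.4 Mb.

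Meiotic cells cut their own DNA at many places and repair the breaks by copying from the homologous chromosome. In mice the zinc finger protein PRDM9 binds a DNA motif, marks the neighbouring nucleosomes and so sets where the breaks form, and strains with different alleles use different places. Without PRDM9 the breaks fall mainly at promoters and other open chromatin. Crossovers next to a centromere are known to be rare in many species, and an exchange placed there can disturb chromosome separation, which makes the density of breaks near centromeres a question of its own.

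Every library is a DMC1 SSDS library of testis, in which an antibody against the strand exchange protein DMC1 recovers the resected single-stranded ends of breaks before sequencing. The 6 inbred lists come from PWD (PWD/PhJ), C3H (C3H/HeJ), MOL (MOLF/EiJ), B6 (C57Bl/6J), CAST (CAST/EiJ) and 13R (B10.F-H2pb1/(13R)J). The 19 F1 lists are crosses between them, named with the mother first, so that PWDfXB6m has a PWD mother and a B6 father, and the knockout came from parents labelled B6;129P2-Prdm9<tm1Ymat>/J. The labels give 1 library for each genotype, and neither the age of the males nor whether animals were pooled is given in the sources used here. A difference between 2 lists therefore has no replicate check, and the tests compare sets of lists against 0 or against each other. Crosses share parents, and 5 pairs are reciprocal, so the permutation p-values over crosses treat related lists as independent and cover the spread between lists only. The design text says that 1 sample was removed for a wrong label and points to the sample called CAST here, so values for CAST and its 5 crosses assume that this label is right. The deposited strength score was used within a list only, as a share, a rank or a percentile, because its scale between lists is unknown, as is the read depth.

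The promoters printed here belong to 3 genes whose starts carry some of the strongest window hotspots of the knockout, and which also carry hotspots of low to middling strength in several mice with PRDM9. They are shown because, in 16 of 19 F1 lists, hotspots at such knockout sites made up a larger share of the windows than of the rest. Each covers 300 bases around a RefSeq transcript start, most of them before it, on the plus strand of GRCm38.p6. Capitals mark exact matches on either strand to the CCAAT box, to the GC box with the letters GGGCGG, or to the TATA box with the letters TATAAA.
3830406C13Rik, chr14:12283963-12284262: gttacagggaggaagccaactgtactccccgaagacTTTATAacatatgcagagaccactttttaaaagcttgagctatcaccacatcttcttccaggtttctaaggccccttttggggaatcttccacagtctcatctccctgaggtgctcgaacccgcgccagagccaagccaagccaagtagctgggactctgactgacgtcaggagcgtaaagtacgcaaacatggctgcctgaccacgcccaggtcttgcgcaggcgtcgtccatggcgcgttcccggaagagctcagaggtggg
Akap9, chr5:3927936-3928235: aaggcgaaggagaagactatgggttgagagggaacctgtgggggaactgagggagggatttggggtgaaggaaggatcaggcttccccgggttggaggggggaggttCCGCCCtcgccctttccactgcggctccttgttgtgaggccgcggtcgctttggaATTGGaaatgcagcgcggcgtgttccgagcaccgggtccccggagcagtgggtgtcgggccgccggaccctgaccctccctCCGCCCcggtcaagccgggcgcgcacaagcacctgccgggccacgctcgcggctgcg
Fbxo30, chr10:11281337-11281636: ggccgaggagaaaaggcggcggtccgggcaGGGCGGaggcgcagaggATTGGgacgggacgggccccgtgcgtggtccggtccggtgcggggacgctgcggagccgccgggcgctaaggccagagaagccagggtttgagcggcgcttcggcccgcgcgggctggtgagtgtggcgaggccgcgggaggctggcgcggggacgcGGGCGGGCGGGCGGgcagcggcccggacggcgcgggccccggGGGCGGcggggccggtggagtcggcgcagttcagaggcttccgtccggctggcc
Akap9 encodes a scaffold protein of the Golgi and centrosome, and its promoter holds 27 CpG and 2 matches to GGGCGG. Fbxo30 encodes an F-box protein of a ubiquitin ligase, and its promoter holds 47 CpG and 5 matches, 3 of them overlapping. The promoter of 3830406C13Rik holds 14 CpG, 1 match to TATAAA and none to GGGCGG. Over all 31396 autosomal promoters of the same length, GGGCGG was present in 36.0%, CCAAT in 37.3% and TATAAA in 13.6%. A promoter was counted with a knockout hotspot when its middle lay within 1000 bp of the centre of one. Among window promoters, 63.7% of the 854 with a knockout hotspot held GGGCGG, against 16.6% of the 1256 without. The same pair of shares past the windows was 63.9% and 17.2%. TATAAA was present in 7.49% of window promoters with a knockout hotspot and in 16.6% of those without. The matches are a description of letters, and the shares in the windows were close to those in the rest.

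The first comparison asked whether hotspots are rarer or weaker next to centromeres than in the rest of the same chromosomes. In inbred mice no difference in number passed the test. In F1 mice window hotspots were slightly rarer than in the whole rest, a deficit that did not hold against every stretch compared. The summed strength of window hotspots was above that expected in 16 of 19 F1 lists and, short of the adjusted threshold, in all 6 inbred lists. The inbred lists held 1074 window hotspots in CAST, 1084 in C3H, 1100 in MOL, 1120 in 13R, 1138 in PWD and 1552 in B6. Per Mb this was lowest in CAST, at 5.65 in the windows and 5.97 in the rest, and highest in B6, at 8.17 and 7.49. The F1 lists held 778 (B6fX13Rm) to 1403 (C3HfXB6m) window hotspots with a median of 1144, or 4.09 to 7.38 per Mb. The knockout held 2086, which is 10.98 per Mb, beside 12.6 per Mb in the rest.

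**Figure D1:**
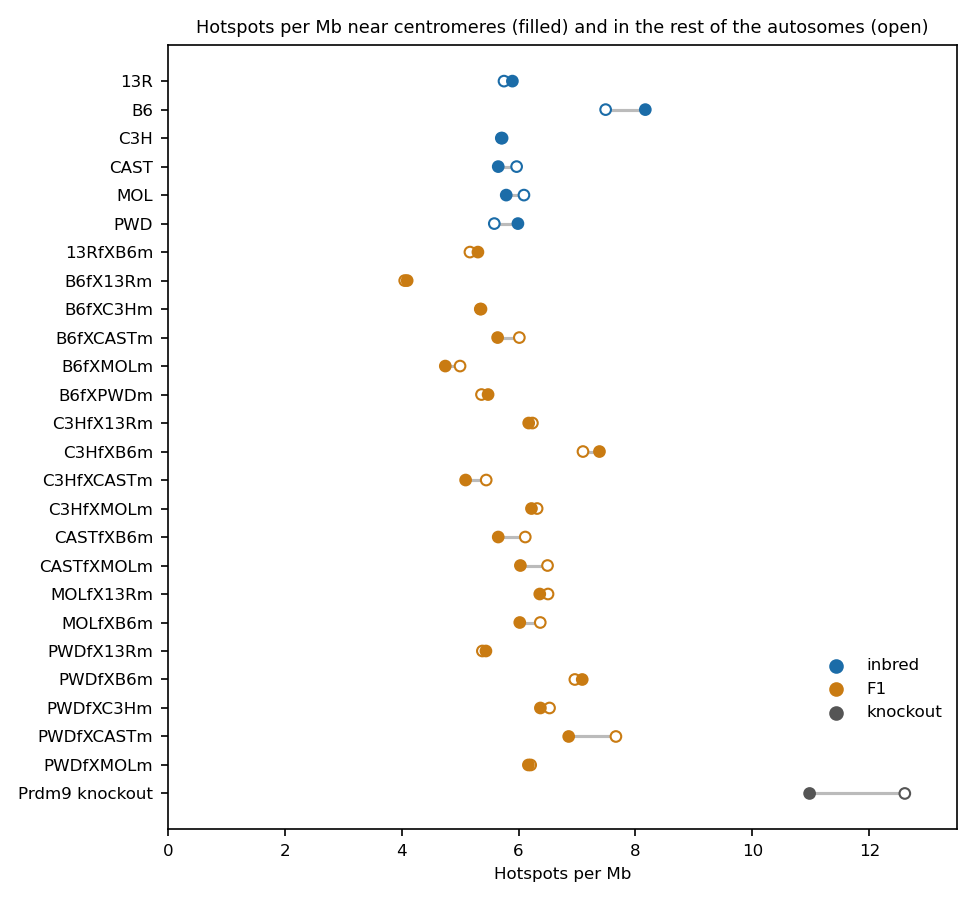
Hotspots per Mb in the 19 windows (filled circles) and in the rest of the autosomes (open circles), 1 line per list, coloured by class; there is 1 library per list and no error bar. The filled circle lies to the right of the open one in B6 (8.17 against 7.49) and to the left in the knockout (10.98 against 12.6) and in PWDfXCASTm (6.86 against 7.67).

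Because chromosomes differ in their density, the number in the windows was set against the number expected from the rest of each chromosome. The log2 ratio of observed to expected number was -0.09 in CAST, -0.09 in MOL, -0.02 in C3H, 0.03 in 13R, 0.09 in PWD and 0.11 in B6. Its mean over the inbred lists was 0.01 ± 0.09 (SD, n = 6), with 3 of 6 above 0, and it did not pass an exact two-sided sign-flip permutation test (p = 0.812, adjusted p = 0.812 over 11 tests). Against the next 10 Mb only, the inbred mean was 0.20 (exact permutation p = 0.0312, adjusted p = 0.0573), and with the strongest 5000 hotspots it was 0.14 (exact permutation p = 0.0312, adjusted p = 0.0573). Over the F1 lists the ratio ran from -0.18 in PWDfXCASTm to 0.04 in C3HfXB6m with a median of -0.04. The F1 mean was -0.05 ± 0.06 (SD, n = 19), a number 0.964 times that expected, with 15 of 19 lists below 0 (two-sided sign-flip permutation test, p = 0.00255, adjusted p = 0.00701). This small deficit depends on the stretch it is set against: it turned to 0.17 when the rest was the next 10 Mb only. When each window began at the first hotspot of any list, the F1 mean was 0.000259. On chromosome 14 that first hotspot was centred 4.75 Mb past the start of placed sequence. Leaving out any 1 of chromosomes 1, 3, 5, 7, 9 and 14 took the F1 deficit past the threshold of 0.05, and without chromosome 9 the F1 mean was -0.01. The difference between F1 and inbred means, -0.06, did not pass the permutation test of list labels (p = 0.0897, adjusted p = 0.141).

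Summed strength was higher in the windows than number alone gives. Window hotspots carried 8.34% (MOL) to 9.29% (PWD) of the autosomal strength of the inbred lists, where 7.78% to 7.99% was expected from the rest of the same chromosomes. The log2 ratio of observed to expected strength was 0.06 in MOL, 0.10 in C3H, 0.12 in CAST, 0.21 in B6, 0.22 in PWD and 0.25 in 13R, so that all 6 inbred lists lay above 0. Their mean was 0.16 ± 0.08 (SD, n = 6), or 1.12 times that expected, with an exact permutation p = 0.0312, the smallest that 6 lists allow, and an adjusted p = 0.0688. In the F1 lists the mean was 0.10 ± 0.09 (SD, n = 19), or 1.07 times that expected, with 16 of 19 lists above 0 (permutation p = 9e-05, adjusted p = 0.00099). The 3 lists below 0 were PWDfXMOLm at -0.02, and MOLfXB6m and B6fXMOLm at -0.01 each. With windows of 20 Mb the F1 mean was -0.00887 and with windows of 5 Mb it was 0.01, and neither passed the threshold. F1 and inbred means differed by -0.06 (permutation p = 0.148, adjusted p = 0.204).

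**Figure D2:**
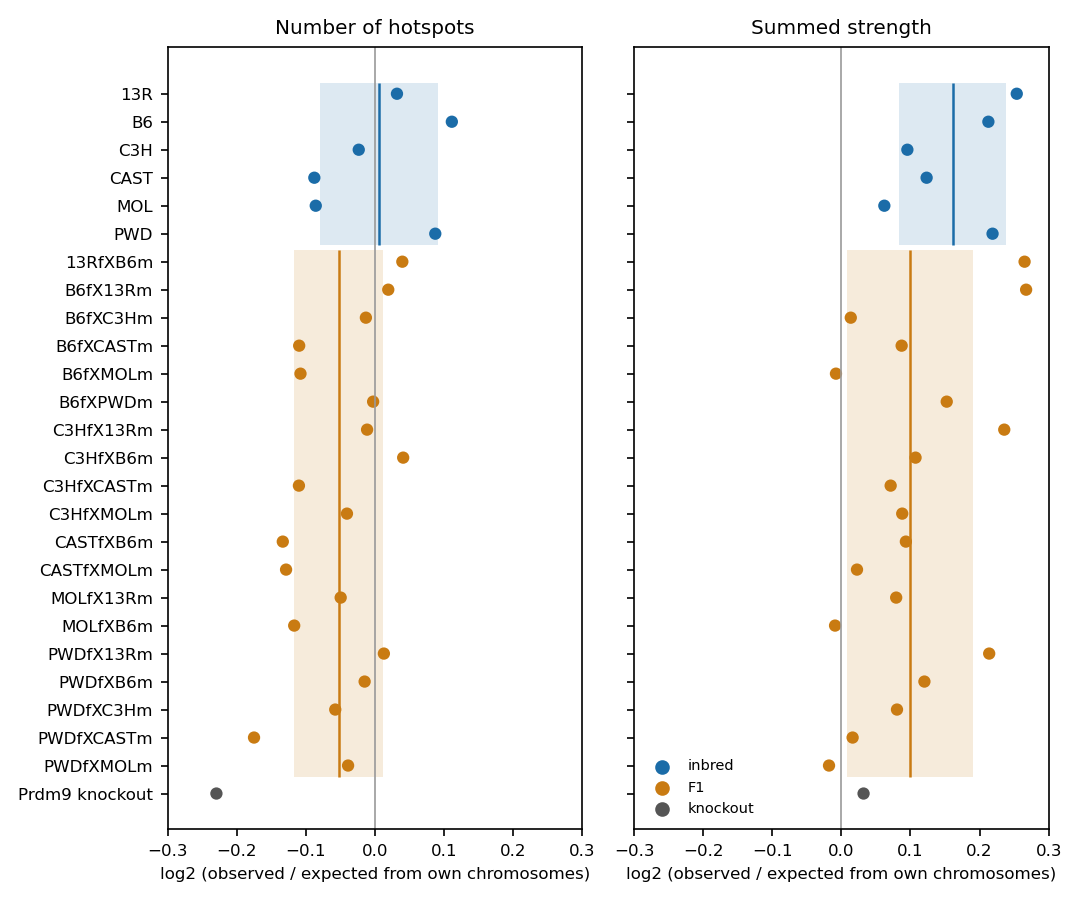
The log2 ratio of observed to expected number (left) and summed strength (right) in the windows for each of the 26 lists. Vertical lines and shaded bands are the mean and 1 SD over the 6 inbred and the 19 F1 lists, and the knockout is 1 library; all 6 inbred lists lie right of 0 for strength and 3 of 6 do for number.

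The median window hotspot was a little stronger than the median hotspot elsewhere, and this passed the test in F1 lists. Its strength percentile within the list exceeded that of the rest by 2.58 ± 1.95 points (SD, n = 6, 5 of 6 above 0) in inbred lists, with an exact permutation p = 0.0625 and an adjusted p = 0.115. In F1 lists the excess was 1.96 ± 2.26 points (SD, n = 19, 15 of 19 above 0; permutation p = 0.00134, adjusted p = 0.00491), from -1.74 in B6fXMOLm to 6.78 in C3HfXCASTm. Against the next 10 Mb only, the F1 excess was 1.27 points and missed the threshold (permutation, adjusted p = 0.0573). In the knockout the excess was 4.46 points.

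The order of the lists followed the strains they carry. Of the 25 lists with PRDM9, the 9 with the lowest density ratio all carried CAST or MOL, and none of the 7 with a ratio above 0 did. The 12 lists with CAST or MOL ranged from -0.18 to -0.04 in density ratio, with a median of -0.11, and the other 13 ranged from -0.06 to 0.11, with a median of 0.01. These 2 ranges overlap. For strength, 5 of the 6 highest ratios belonged to 13R and its crosses with B6, C3H and PWD, between 0.21 and 0.27, and the fifth cross of 13R, MOLfX13Rm, was at 0.08. In 12 of 19 crosses the density ratio lay below that of both parents, in 7 it lay between them and in none above both. Among the 5 reciprocal pairs the largest gap was that between B6fXC3Hm and C3HfXB6m, 0.05 in density ratio and 0.09 in strength ratio (0.01 against 0.11). This grouping by strain was seen in the values and was not tested.

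Some of the strongest hotspots of the genome lay near centromeres. The strongest window hotspot ranked between 1 and 11 among all autosomal hotspots of its list in the 25 lists with PRDM9, and 24 of them had a window hotspot among their 10 strongest. In C3H, CAST, CASTfXMOLm and PWDfXB6m it was the strongest of all. Among the 100 strongest hotspots of a list, 7 (B6fXC3Hm and C3HfXB6m) to 20 (13R and 13RfXB6m) lay in a window, and among the 1000 strongest the share was 7.7% to 12.3%, beside 7.91% of the length. In the knockout 132 of the 1000 strongest, or 13.2%, lay there.

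The strongest window hotspot of each inbred strain was inherited by its crosses to different extents. In CAST it lay on chromosome 3 at 9026456 to 9030889 over the lncRNA gene Gm46832, and it ranked 1, 2, 6, 2, 1 and 2 in CAST, B6fXCASTm, C3HfXCASTm, CASTfXB6m, CASTfXMOLm and PWDfXCASTm. In 13R it lay on chromosome 8 at 8219716 to 8223735, 395510 bp from the nearest end of Efnb2, which encodes an ephrin ligand. It ranked 8 in 13R and 3, 2, 2, 4 and 16 in 13RfXB6m, B6fX13Rm, C3HfX13Rm, MOLfX13Rm and PWDfX13Rm. Neither place held a hotspot in any list without that strain. In both cases the crosses kept it among their strongest places.

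In PWD, MOL and B6 the strongest place had a lower rank in the crosses that kept it. In PWD it lay on chromosome 11 at 4929264 to 4933103, 2316 bp from the nearest end of Thoc5, a gene of the mRNA export complex THO. It ranked 2 in PWD and 118 (PWDfXB6m) to 683 (PWDfXCASTm) in its 6 crosses. In MOL it lay on chromosome 15 at 4987565 to 4991694 inside C7, which encodes a component of complement, and it ranked 2 in MOL and 113 (PWDfXMOLm) to 1314 (CASTfXMOLm) in 6 crosses. In B6 it lay on chromosome 12 at 4971897 to 4976564 inside Atad2b, a bromodomain gene. That place ranked 7 in B6, 4361 in C3H, 104 and 100 in B6fXC3Hm and C3HfXB6m, and 6883 in CASTfXB6m. It was also found in PWDfXC3Hm, which has no B6 parent, at rank 14696. In C3H the strongest place, on chromosome 18 inside Epc1, a subunit gene of the NuA4 acetyltransferase, ranked 1. It ranked 2 in PWDfXC3Hm, 7 in B6fXC3Hm, 11 in C3HfXB6m, 53 in C3HfXMOLm, 60 in C3HfXCASTm and 439 in C3HfX13Rm. Without a C3H parent it was found in B6 at rank 7688 and in CASTfXMOLm at rank 10718.

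A place may be strong in hybrids and absent from every inbred list. On chromosome 10, 118411 bp from the end of Sash1, a hotspot at 9061826 to 9066213 ranked 3 in CASTfXB6m, B6fXCASTm and B6fXMOLm. It also ranked 10 in PWDfXB6m, 11 in B6fXPWDm and MOLfXB6m, and 105 to 339 in PWDfXC3Hm, C3HfXMOLm and C3HfXCASTm. All 9 lists are crosses of B6 or C3H with CAST, MOL or PWD. Inside Ganab on chromosome 19, a gene of glucosidase II, the hotspot at 8905925 to 8909994 ranked 4 in PWDfXMOLm and appeared in the 6 crosses with a PWD parent and in no inbred list. These 2 places were named because their percentile was among the 5 highest of places found in neither parent.

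The place found in the most lists lay on chromosome 15 at 3981187 to 3984446, at the end of AW549877. It appeared in 19 of the 25 lists, 4 of them inbred: it ranked 71 in PWD, 191 in 13R, 354 in CAST and 5915 in C3H. A place on chromosome 2, 1219056 bp from its nearest protein-coding gene Gata3, appeared in 17 lists. A place inside the lncRNA gene Gm34259 on chromosome 17 and a place 40520 bp from Rdh14 on chromosome 12 also appeared in 17 each. None of these 4 places matched a hotspot of the knockout. The hotspot nearest to the start of placed sequence over the inbred lists lay on chromosome 13 at 3032973 to 3035328 in PWD, 503925 bp from Gdi2, with a percentile of 36.8 in that list. At the other edge of the rule, the last B6 hotspot inside was centred 2392 bp before 13000000 on chromosome 7, with a percentile of 85.2, and the first outside was centred 5423 bp past it on chromosome 8, with 84.2.

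Chromosomes differed more than genotypes. On chromosome 7 the median log2 density ratio over the 25 lists with PRDM9 was -1.03, a density 0.491 times that of the rest of the chromosome, and on chromosome 16 it was 0.44, or 1.35 times. All 25 lists were below 0 on chromosomes 1 (median -0.40), 3 (-0.60), 7, 9 (-0.93) and 14 (-0.69), and all 25 were above 0 on chromosomes 15 (0.26) and 16. The window of chromosome 14 includes a stretch of 4.75 Mb without a hotspot in any list, so its ratio does not describe an evenly low density. The SD of the 19 medians was 0.438, and the median SD between lists on 1 chromosome was 0.212. The density ratios of 2 inbred lists were correlated across the 19 chromosomes with a Spearman rho of 0.581 (C3H and MOL) to 0.830 (13R and MOL), with a median of 0.691 over 15 pairs. These rho values are descriptions, since all lists were mapped to 1 assembly and chromosomes are not replicates. Strength followed number on chromosomes 3, 7 and 9, where no list reached an expected share, and it exceeded the expected share in all 25 lists on chromosomes 2, 10, 12, 15, 16 and 17.

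**Figure D3:**
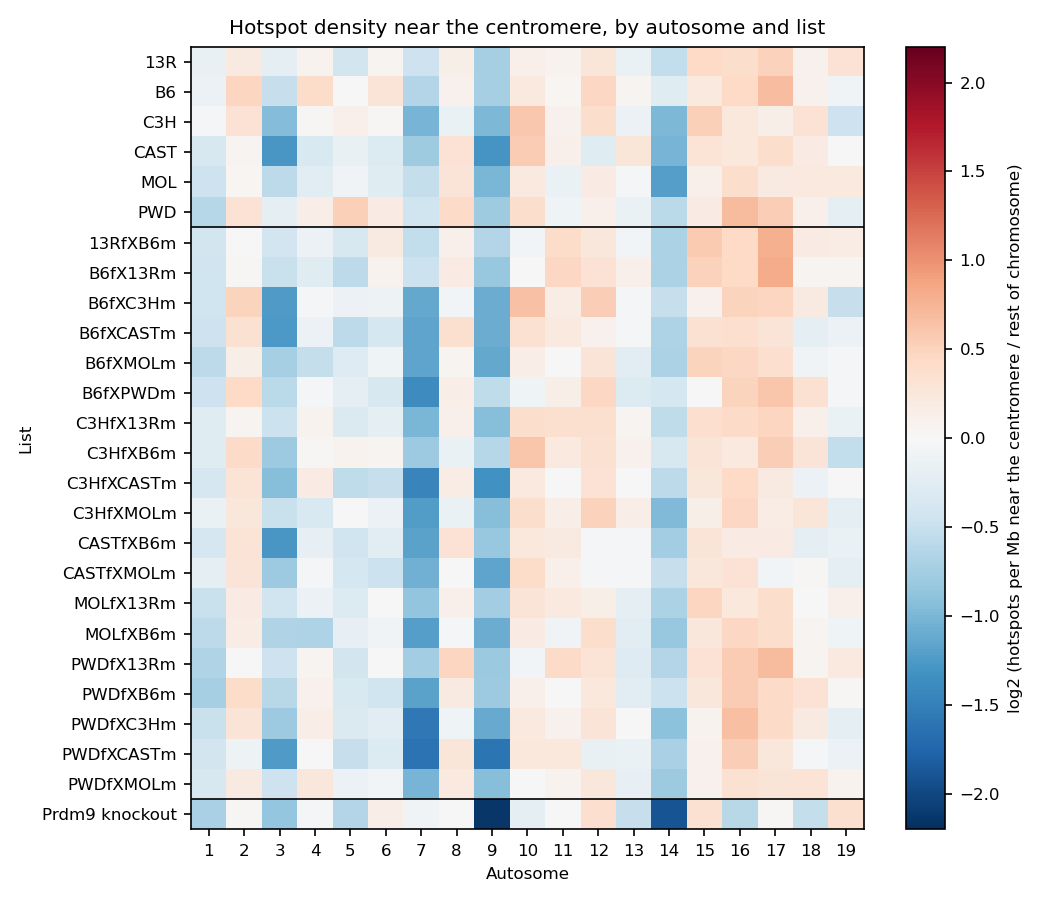
Log2 ratio of hotspots per Mb in the window to hotspots per Mb in the rest of the chromosome, for 19 autosomes (columns) and 26 lists (rows; inbred, F1 and knockout from top to bottom). Columns 3, 7, 9 and 14 are blue in all lists with PRDM9, with medians of -0.60, -1.03, -0.93 and -0.69, and columns 15 and 16 are red. The window of chromosome 14 includes 4.75 Mb without a hotspot in any list.

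The knockout shared part of this pattern. Across the 19 chromosomes its ratio was correlated with the median of the other lists with a Pearson r of 0.629 and a Spearman rho of 0.560, again as a description. It was lowest on chromosome 9, at -2.14 with 29 hotspots, and on chromosome 14, at -1.89 with 32. On chromosomes 7 and 16 it departed from the others, at -0.07 with 100 hotspots and -0.62 with 95. The window of chromosome 7 holds 181 protein-coding genes, or 18.1 per Mb against 13.9 in the rest, and 59 of them are vomeronasal receptor genes. The window of chromosome 9 holds 3.4 per Mb against 10.5. Those of chromosomes 14 and 16, where the knockout ratio was also below 0, hold 9.5 against 6.75 and 7.9 against 7.05. Over all windows there were 7.48 protein-coding genes per Mb and over the rest 8.65, and the part of gene content in the density of the knockout was not tested.

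A long stretch at the start of chromosome 14 and a shorter one within the window of chromosome 7 held no hotspot at all. On chromosome 14 none of the 26 lists had a hotspot between 3000001 and 7748368, a stretch of 4.75 Mb with 76 protein-coding genes, 69 of them known only by Gm numbers. The next longest was 1.01 Mb on chromosome 7, from 8807523 to 9821817, with 7 protein-coding genes, 6 of them vomeronasal receptors. On the other 17 chromosomes the longest stretch without a hotspot in any list was 0.127 to 0.484 Mb. The knockout had its first hotspot of chromosome 14 centred 4.75 Mb past the start of placed sequence. The density ratios given above for chromosome 14 count the empty stretch as part of its window. The sequence content of these stretches was not analysed here.

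Distance from the centromere showed no steady gradient within the windows. In the first Mb the number of hotspots was 0.805 times that expected (median over 25 lists), with 1 of 25 lists above the expected number, and in the second Mb it was 1.14 times, with 22 of 25 above. It was 0.839 times in the fifth Mb, with 0 of 25 above, and 1.06 times in the tenth, with 18 of 25 above. Over the next 10 Mb the lowest values were 0.740 in the thirteenth Mb and 0.711 in the seventeenth, with 0 of 25 lists above the expected number in both. The highest were 0.986 in the nineteenth, with 10 of 25 above, and 0.929 in the eleventh, so the 2 ranges overlap. The knockout was at 0.785 in the first Mb, 1.24 in the second, 0.572 in the fifth, 0.511 in the thirteenth and 1.186 in the nineteenth.

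**Figure D4:**
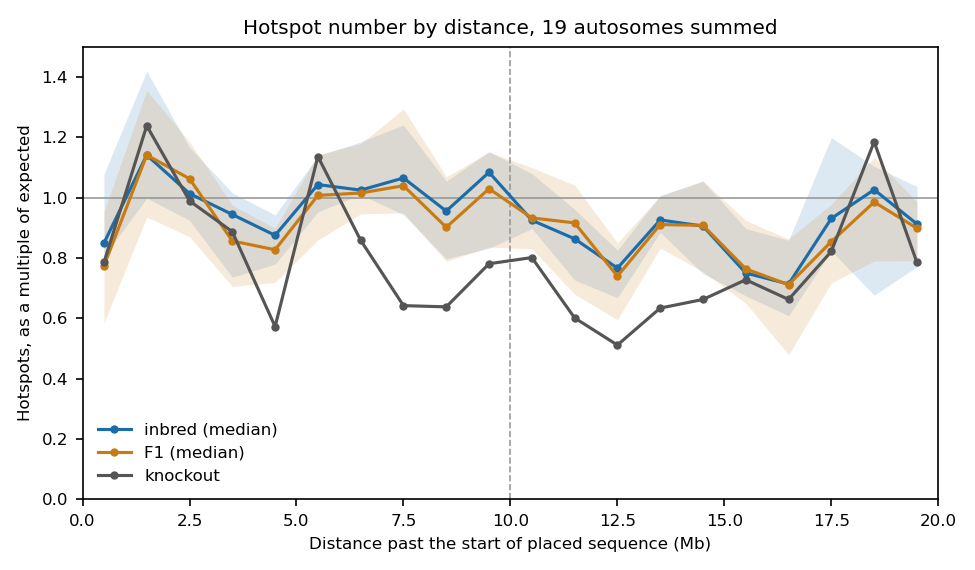
Hotspots in 1 Mb steps from the start of placed sequence, summed over 19 autosomes and divided by the number expected from the sequence past the windows. Lines are the medians of 6 inbred and 19 F1 lists with the full range shaded, the dark line is the 1 knockout library and the dashed line ends the window; the second Mb lies above 1 (1.14) and the thirteenth below it (0.740).

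In the knockout the share of hotspots at gene ends was close in the windows and in the rest. Of its 2086 window hotspots 720, or 34.5% (exact 95% interval 32.5% to 36.6%), were centred no farther than 1000 bp from where a protein-coding gene begins or ends, beside 32.9% in the rest and 33% of all its autosomal hotspots. In the inbred lists this share was 2.77% (C3H) to 5.54% (PWD), beside 2.65% (13R) to 3.64% (PWD) in the rest. In PWD the exact 95% interval was 4.28% to 7.03% in the windows and 3.32% to 3.99% in the rest, so these intervals were separate. They were also separate in B6, at 3.53% to 5.66% and 2.76% to 3.28%. Among the crosses they were separate in PWDfXB6m (11.4% in the windows, 6.49% in the rest), B6fXPWDm (6.34% and 3.76%) and PWDfXC3Hm (5.53% and 3.90%). In the remaining lists they overlapped. Counted by gene, 756 of the 1421 protein-coding genes in the windows, or 53.2%, had a knockout hotspot at an end, beside 51.8% in the rest and 51.9% of all 20556 genes. B6 had one at 75 of the 1421, beside 532 of the 19135 in the rest.

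Gene groups in the windows had unlike shares in the knockout. Ribosomal protein genes, active in every cell, had a knockout hotspot in the windows at Rpl37, Rpl39l, Rps20, Rpl28 and Rps9, which ranked 1461, 2933, 3485, 4682 and 6243. Olfactory receptor genes, silent in most tissues, had one at 2 of 40, Olfr15 and Olfr1344, beside 24 of 1063 in the rest. All 4 members of a list of 46 meiotic prophase genes that lie in a window had one, beside 35 of 41 in the rest. Mybl1, which encodes the transcription factor A-MYB of male meiosis, had the hotspot ranked 16 in the knockout. The others were Hormad2, an axis protein gene (2418), Gm960, the gene of the break-forming subunit TOP6BL (4048), and Majin, a gene of the telomere attachment complex (7485). With so few members per group the counts are descriptions.

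The 5 strongest window hotspots of the knockout lay at gene ends, and mice with PRDM9 had a hotspot there in 4 to 10 of the 25 lists, at percentiles of at most 54.0. They were at 3830406C13Rik (chromosome 14, 12282442 to 12286369, rank 15), Mybl1 (chromosome 1, 9697984 to 9702835, rank 16), Ints8 (chromosome 4, 11251869 to 11255852, rank 19), Akap9 (chromosome 5, 3926303 to 3930364, rank 23) and Fbxo30 (chromosome 10, 11278861 to 11283868, rank 29). The centre lay within 597 bp of a gene end in each case, and inside the gene. Akap9 had a matching hotspot in 10 of the 25 lists, at percentile 12.8 in B6, 24.1 in PWD and 43.0 in PWDfXB6m. Fbxo30 had one in 8 lists, at percentile 6.5 in B6, 32.3 in PWD and 54.0 in PWDfXB6m. 3830406C13Rik had one in 4 lists, PWD, PWDfXB6m, PWDfXCASTm and PWDfXMOLm, at percentiles of 40.2, 30.6, 0.1 and 21.4. None of these 3 had a match in 13R, C3H, CAST or MOL. Mybl1 had a match in 5 lists, with C3H and PWD among them, and Ints8 in 8, with B6 and PWD among them.

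Hotspots at knockout sites were more frequent in the windows than in the rest on average over the F1 lists, but not in every list. A hotspot was counted there when its centre lay under 400 bp from the centre of a knockout hotspot. The share that such matches would reach by position alone was not computed, so a low share by itself does not show use of knockout sites. The share of window hotspots at a knockout site exceeded that of the rest in 16 of 19 F1 lists, by 0.908 ± 1.44 percentage points on average (SD, n = 19; two-sided sign-flip permutation test, p = 0.00026, adjusted p = 0.00143). In PWDfXB6m, 149 of 1347 window hotspots, or 11.1%, lay at a knockout site, against 5.48% in the rest. The reciprocal cross B6fXPWDm had 4.80% and 1.91%, PWDfXMOLm 4.52% and 2.22%, PWDfXC3Hm 3.72% (45 of 1211) and 289 of 14454 in the rest, and C3HfXB6m 3.35% and 1.45%. In other crosses the windows held few: PWDfX13Rm had 5 such window hotspots (0.484%), MOLfX13Rm 8 (0.662%) and B6fXCASTm 8 (0.746%). The 19 shares ranged from 0.484% to 11.1% with a median of 1.16%. Without PWDfXB6m the mean difference was 0.649 points and still passed.

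Inbred lists split in the same way. B6 had 50 of 1552 window hotspots at a knockout site, or 3.22% (exact 95% interval 2.40% to 4.23%), against 1.43% in the rest. PWD had 43 of 1138, or 3.78% (2.75% to 5.06%), against 1.58%. C3H had 1.57% and 0.932%. In 13R (0.714% and 0.699%), CAST (0.745% and 0.803%) and MOL (11 of 1100 and 1.098%) the window share lay close to that of the rest. Seen from the knockout, the same matches say that 7.14% of its 2086 window hotspots were also found in PWDfXB6m, against 3.02% of its 27905 others. The share was higher in the windows for 22 of 25 lists, with intervals that did not overlap for 8 of them, and no list had the reverse with separate intervals. The intervals cover counting error only.

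The excess was not confined to the 10 Mb of the rule. In PWDfXB6m the share of hotspots at a knockout site was 10.8% in the first 5 Mb past the start of placed sequence, 11.3% from 5 to 10 Mb and 9.90% from 10 to 20 Mb. It was 5.99% from 20 to 40 Mb, 5.05% from 40 to 80 Mb and 4.71% beyond. Set against the next 10 Mb only, the mean F1 difference was 0.27 points and did not pass (permutation, adjusted p = 0.0872). The knockout itself had 11.5, 10.4 and 9.52 hotspots per Mb in the first 3 steps and 12.6, 11.9 and 13.9 in the others. The part of knockout density in these shares was not tested.

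**Figure D5:**
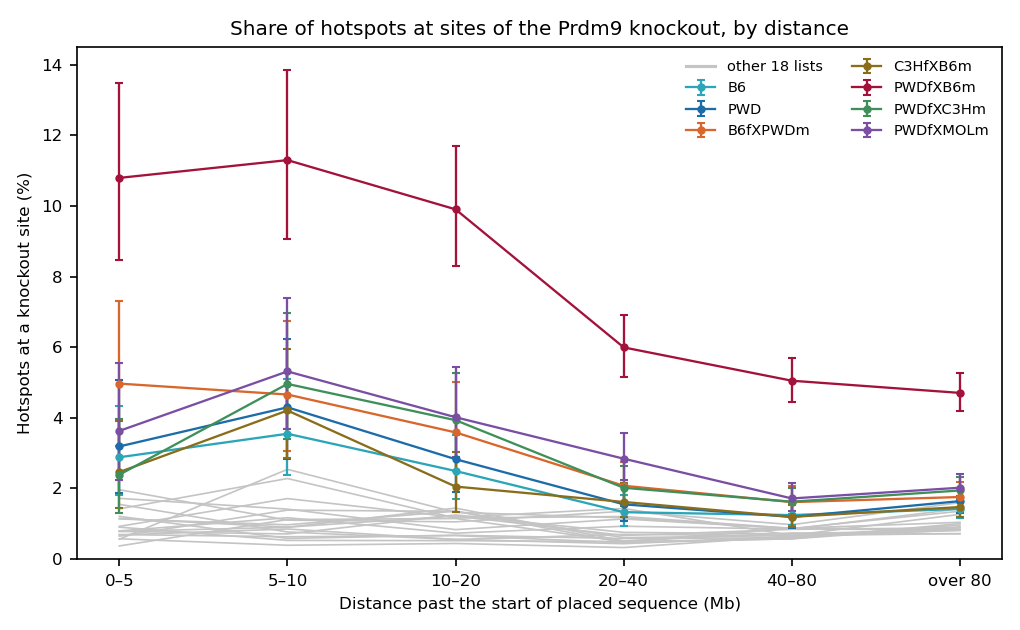
Share of hotspots centred under 400 bp from a knockout hotspot, in 6 steps of distance past the start of placed sequence. Coloured lines are 7 lists chosen after their values were seen, with exact 95% intervals that cover counting error, and grey lines are the other 18 lists; PWDfXB6m runs from 10.8% in the first step to 4.71% in the last.

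Chromosome 5 had the highest such share in PWDfXB6m, B6fXPWDm, C3HfXB6m and B6. On its window 15 of 63 hotspots of PWDfXB6m (23.8%), 12 of 52 of B6fXPWDm (23.1%), 12 of 73 of C3HfXB6m (16.4%), 12 of 78 of B6 (15.4%) and 8 of 97 of PWD (8.25%) lay at knockout sites. CAST, MOL and the 4 crosses B6fXCASTm, C3HfXCASTm, CASTfXMOLm and PWDfXCASTm had 0 there, of 38 to 59 hotspots each. Chromosome 18 gave more such hotspots in some crosses, with 23 of 112 (20.5%) in PWDfXB6m, 14 of 86 (16.3%) in B6fXPWDm and 12 of 98 (12.2%) in PWDfXC3Hm, and chromosome 19 gave 18 of 102 in PWDfXB6m. On the remainder of chromosome 5 the share was 0.835% in B6 and 6.44% in PWDfXB6m. Without chromosome 5, a setting chosen after seeing the data, the mean F1 difference was 0.615 points and missed the threshold (permutation p = 0.0202, adjusted p = 0.0554), and without chromosome 18 it was 0.820 points and passed. On the other 18 windows PWDfXB6m still had 134 of 1284, or 10.4% (8.82% to 12.2%), against 5.40% in the rest, and PWD 3.36% (2.35% to 4.65%) against 1.58%. B6 had 2.58% (1.83% to 3.52%) against 1.47%. In 13RfXB6m, B6fXMOLm, MOLfXB6m, C3HfXMOLm and C3HfX13Rm the window share was above that of the rest with chromosome 5 and below it without. In MOLfXB6m, for example, it was 1.01% against 1.33% without chromosome 5. By chromosome, the window share of PWDfXB6m exceeded that of the rest on 15 of 19. In 13 of the F1 lists it did so on 5 to 8 of 19 chromosomes, and in the others on 10 to 15.

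In PWDfXB6m, B6, PWD and the crosses with the most hotspots at knockout sites, these hotspots were mostly weak and lay at genes. In PWDfXB6m their median strength percentile was 13.2, beside 53.6 for its other window hotspots, and they carried 2.67% of the window strength. In B6 the median percentile was 7.06 and in PWD 11.6. With lists cut to their strongest 5000 hotspots, the mean F1 difference was 0.0281 points and did not pass, and with the strongest 50% it was -0.00999. Of the 149 in PWDfXB6m 107, or 71.8%, were within 1000 bp of a gene end, beside 3.92% of its other window hotspots and 56.9% of its knockout-site hotspots past the windows. The corresponding window counts were 30 of 50 in B6, 29 of 43 in PWD, 33 of 50 in B6fXPWDm and 0 of 5 in PWDfX13Rm. In the knockout the window hotspots recovered by PWDfXB6m had a median percentile of 97.3, and those not recovered 50.7. Past the windows the recovered ones were at 96.1, and the knockout-site hotspots of PWDfXB6m at 13.4 within that cross, both close to the window values. For B6 and PWD the recovered ones were at 98.9 and 99.2 in the windows and at 67.3 and 71.8 past them. Lists with at most 17 window hotspots at knockout sites varied. Their median percentile was 14.7 over 17 in C3H, 26.6 over 11 in PWDfXCASTm and 30.1 over 8 in CAST. It was 62.2 over 10 in C3HfXCASTm, 64.9 over 11 in MOL and 67.4 over 9 in C3HfX13Rm. At a gene end lay 8 in C3H, 2 each in PWDfXCASTm, CAST and MOL, and 1 each in C3HfXCASTm and C3HfX13Rm. Of the 149 of PWDfXB6m, 95 (63.8%) matched no hotspot of PWD or B6 and 54 matched one. Past the windows 597 of its 844 knockout-site hotspots (70.7%) matched none.

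B6 and PWD use different PRDM9 alleles and shared 27 window hotspots, 2.37% of the PWD list (1.57% to 3.43%), against 1.03% in the rest. Of these 27, 23 (85.2%, 66.3% to 95.8%) lay at a knockout site, against 29 of 127 (22.8%, 15.9% to 31.1%) of those shared past the windows. B6 and C3H, by contrast, shared 408 window hotspots, 37.6% of the C3H list, and 5 of the 408 lay at a knockout site. The 23 places lay on 9 chromosomes, 7 of them on chromosome 5, and 18 were centred within 1000 bp of a gene end. In the knockout 22 of them were among the 1000 strongest hotspots, and their median percentile was 99.6, beside 3.41 in B6 and 10.3 in PWD. On chromosome 5 they lay at Akap9, Cldn12, Dbf4, Rundc3b, Crot, Tmem243 and Dmtf1. Elsewhere they included Mybl1, Ints8, Fbxo30, the replication protein gene Rpa3, and Suv39h2, which encodes a histone methyltransferase of heterochromatin expressed in testis. The strongest of the 23 in B6 was 1997 bp from Chd7, a chromatin remodeller gene, at percentile 75.4.

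Other properties of the hybrids were not shown to differ near centromeres. The share of window hotspots at no hotspot of either parent was 1.29% (B6fX13Rm) to 35.9% (PWDfXB6m) with a median of 21.8%. It differed from that of the rest by 0.613 ± 2.03 percentage points (SD, n = 19), with 9 of 19 lists above 0 (permutation p = 0.204, adjusted p = 0.25). With the 5000 strongest hotspots of each list the difference was -1.85 points (permutation, adjusted p = 0.0307), and with windows of 20 Mb it was 1.099 points (permutation, adjusted p = 0.011). Among hotspots found in only 1 parent, the maternal share in the windows was 14.1% (B6fX13Rm) to 81.0% (13RfXB6m), and it differed from that of the rest by 0.242 ± 1.99 points (SD, n = 19, 12 of 19 above 0; permutation p = 0.599, adjusted p = 0.659). A p above the threshold does not show that these shares are equal.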

How the data were processed

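Each DMC1 SSDS list, as the authors deposited it, gives the chromosome, start, end and a strength score of every hotspot called in 1 library. CASAVA 1.8, MACS2 2.0.10 and the mm10 build are named, per the submitters' processing notes. How the tools were set, how the score was normalized and how deeply each library was read is not given in the sources used here. Samples of input DNA (5) were not used. Starts were read as 0-based and printed 1-based. Some scores lie below 0, among them 9 window hotspots in 7 lists, and they were kept.

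Genes and promoters came from RefSeq tables of GRCm38.p6; 328 autosomal genes placed before 3000000 were left out. Chromosome length was the last hotspot or gene end. Expected numbers and strengths were summed over chromosomes from each rest. Values per list were tested by two-sided sign-flip permutation (exact for 6 lists, 100000 resamples for 19, smallest p 1e-05) or by permuting list labels, with Benjamini-Hochberg adjustment over 11 tests and a threshold of 0.05. The 95% intervals are Clopper-Pearson. The ratios and tests were tested on simulated lists with known ratios. Named places follow rules: the 5 strongest window hotspots of the knockout, the strongest and the first in each inbred strain, the 5 highest places found in neither parent, and the 5 places in most lists. The count over ribosomal protein genes is not reported here. The members, lists and rules were chosen with earlier results of these data known, and the descriptions of chromosome 5, strain order, distance and B6 and PWD sharing were added after first results were seen. Python 3.11.15, numpy 2.4.6, scipy 1.17.1 and pandas 2.3.3 were used.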

Additional observations from a re-analysis of the deposited data

How the results depend on the processing

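The mean density ratio of inbred lists, 0.01, was -0.0461 with windows of 5 Mb and -0.112 with windows of 20 Mb, 0.137 with the strongest 5000 hotspots and 0.202 against the next 10 Mb. It ranged from -0.0158 to 0.0240 without each list, from -0.0198 to 0.0456 without each chromosome, and passed the threshold in none of these. The F1 density ratio was 0.0365 with the strongest 5000 hotspots, 0.168 against the next 10 Mb, 0.000259 from the first hotspot, -0.00927 with the strongest 50% and -0.0344 with 1 ratio over all autosomes. It ranged from -0.0579 to -0.0459 without each list and from -0.0859 to -0.0137 without each chromosome, where 6 of 19 settings missed the threshold. The F1 strength ratio was 0.0145 with windows of 5 Mb and -0.00887 with 20 Mb. The F1 percentile difference was 1.27 points against the next 10 Mb and missed the threshold. The share found in neither parent differed by -0.0424 points with 5 Mb, 1.099 with 20 Mb, -1.85 with the strongest 5000, -0.676 with the strongest 50%, -0.796 against the next 10 Mb and -0.0367 with 50% reciprocal overlap. The knockout-site difference was 0.0281 points with the strongest 5000, -0.00999 with the strongest 50%, 0.27 against the next 10 Mb and 0.615 to 1.07 without each chromosome. The cause of these changes was not tested. Without each list the knockout-site difference was 0.649 to 0.968 points. The inbred strength ratio, the inbred percentile difference, the maternal share and both differences between F1 and inbred lists kept their direction and their side of the threshold in every setting run. Read depth is unknown, so hotspots below the calling threshold of a list cannot be counted. No paired analysis was possible because each genotype has 1 library, so no replicate number pairs samples across groups.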
